A study of Mus musculus with 8 samples.

Results

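The effect of PAM3 was taken over all 8 libraries of the series, 4 with PAM3 against 4 without, with 25HC as a covariate. PAM3 stands for PAM3CSK4, a synthetic lipopeptide, and 25HC for 25-hydroxycholesterol, an oxysterol. The cells were bone-marrow-derived macrophages of C57BL/6 mice, and the chromatin was precipitated with a polyclonal antibody to acetylated histone H4. The 4 libraries with PAM3 were PAM3 alone and 25HC then PAM3, and the 4 without were untreated and 25HC alone, with mouse A and mouse B giving 1 library each to every group. The stimulation time in the labels has no unit and reads 18 in the libraries with PAM3 and 0 in the others, so PAM3 and that time cannot be told apart.

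Acetyl groups on the tails of histone H4 loosen the packing of nucleosomes and are bound by bromodomain proteins, and acetylated H4 lies at active promoters and enhancers. PAM3CSK4 imitates the lipid-anchored end of bacterial lipoproteins and is sensed at the cell surface by Toll-like receptor 2 together with Toll-like receptor 1. That pair signals through the adaptor MyD88 to NF-kB and the MAP kinases, which in macrophages switch on cytokine, chemokine and antimicrobial genes. 25HC is made from cholesterol by the enzyme Ch25h, blocks the release of SREBP transcription factors and activates LXR receptors.

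The value of a gene was its called length, the bp of a library's deposited peaks in the gene body and 5 kb on either side. The test was limma on log2(bp + 500) after subtraction of each library's median, for the 14586 of 21883 protein-coding genes whose mean reached 500 bp, and a gene with a Benjamini-Hochberg adjusted p under 0.05 is said to have risen or fallen. Between 48446 and 54552 peaks per library covered 56.6 to 72.4 Mb, and the covered length differed by less than the spread between libraries, averaging 65.5 ± 7.01 Mb in the libraries with PAM3 and 64.6 ± 3.53 Mb in the others (SD, n = 4 each; two-sided exact permutation test, p = 0.8286). All 12 macrophage markers, among them Adgre1 and Itgam, had peaks in all 8 libraries. Of 11 neutrophil markers, 5 had no peak in any library (Ly6g, Cxcr2, S100a9, Ngp and Retnlg), as had 4 of 10 T and NK cell markers with a window and Pax5 of the B cells. Yet 4 neutrophil markers, 4 of the T and NK cell list and 1 of 7 B cell markers had peaks in all 8 libraries. So had 6 of 9 dendritic cell, 4 of 10 fibroblast and endothelial and 3 of 7 erythroid and megakaryocyte markers. The markers therefore do not show that other cells were absent. Other markers of such cells fell with PAM3, Cd2 and Cd4 of the T and NK cell list and Clec9a and Siglech of the dendritic cell list, and Xcr1 of the latter rose. The summed length of the T and NK cell markers was 12112 to 13883 bp without PAM3 and 8135 to 12689 bp with it, and that of 9 dendritic cell markers 28100 to 34806 and 23079 to 30209 bp. Their part in the results below was not tested. In bulk libraries, fewer cells of a type and less acetylation per cell cannot be told apart.

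With PAM3, 711 genes rose (4.87% of those tested) and 696 fell (4.77%). A change was counted as alike in the 2 settings when the gene was called, when PAM3 minus untreated and 25HC then PAM3 minus 25HC had the same sign and the smaller was at least 50% of the larger, and when the 4 libraries with PAM3 all lay on 1 side of the other 4. By that rule 605 rises (4.15% of genes tested) and 554 falls (3.8%) were alike, 82.4% of the 1407 called genes, and over all genes tested 13.2% had such a pattern, called or not. The fit has no term for a PAM3 change that differs with 25HC, so unlike changes widen its error and make a call less likely. The share of 82.4% is therefore partly set by the model and gives no support for a shared response. In a limma model with 4 separate groups, 1083 of 1724 called genes were alike. The median alike rise went from 2484 bp without PAM3 to 4991 bp with it, and the median alike fall from 4033 to 2178 bp. All 4 libraries with PAM3 lay above the other 4 for 8.49% of genes tested and below them for 9.85%. Where the groups of an alike gene are said below to lie apart, that restates the rule and gives no further support.

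No gene's PAM3 change differed between cells with and without 25HC in limma's interaction test, where 1436 genes had an unadjusted p under 0.05 and the smallest adjusted p was 0.0734 (32 genes were called without the trend and robust settings, and 192, 159 and 16 when PAM3 A, 25HC then PAM3 A or 25HC then PAM3 B was left out). That does not show equal changes. The 95% interval of the difference between the 2 settings had a median width of 1.19 log2 units for both the alike rises and the alike falls, and it left out 0 for 22 of the 605 rises and 24 of the 554 falls. Across all genes the changes in the 2 settings had the same sign for 64.7%, and Pearson's r across genes was 0.45 (genes are not independent replicates, and neighbours share peaks). The calls rest on the weaker peaks too: when peaks under a −log10 q of 5 were left out, limma called no gene (1565 had an unadjusted p under 0.05), and 1119 of the 1317 called genes that could be tested there kept their direction, with Tnf, Trem1, Rel, Tlr5, H2-DMb2, Plk1 and Il4ra among those that did not. With peaks trimmed to the same covered length in each library 144 genes were called. Each of the 8 fits that left out 1 library called fewer genes than the full fit, from 645 (without 25HC B) to 1183 (without PAM3 A). Of 68 called genes here, those of the rule for named genes with Saa4, Has1, Prtn3 and Elane, 46 kept their call in all 8 of those fits and 61 in a fit with the mouse as a block.

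**Figure D1:**
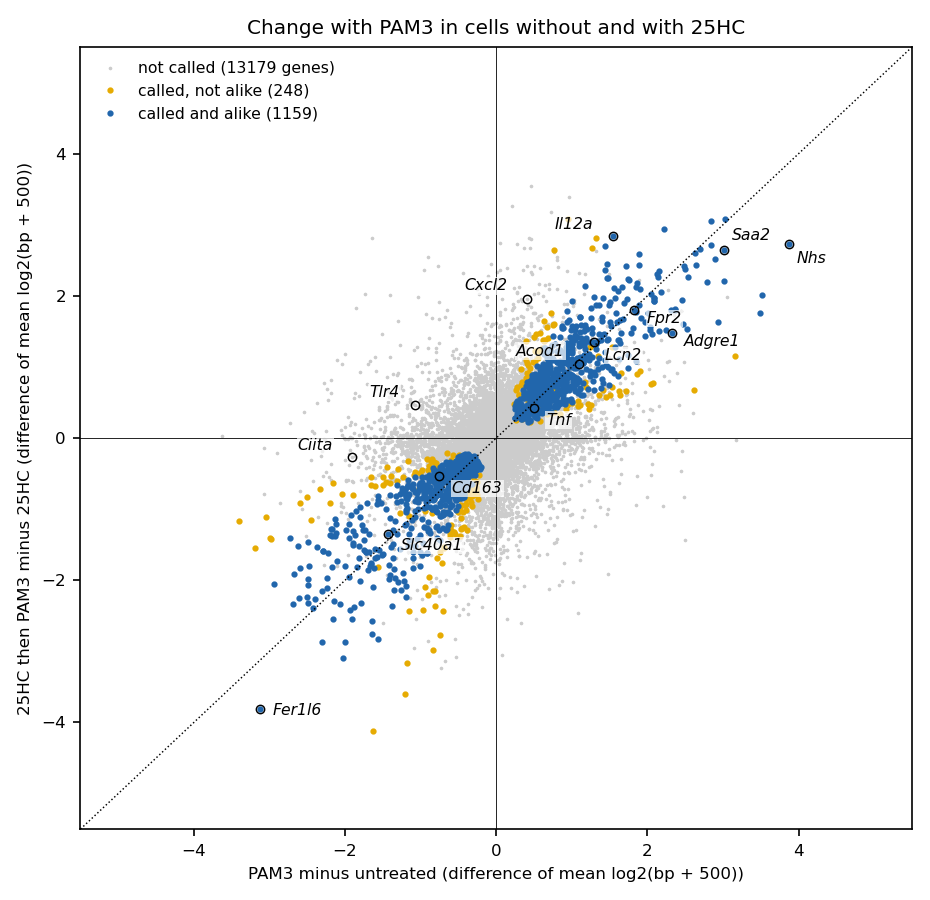
Each point is 1 of the 14586 genes tested, with the change of PAM3 against untreated on the horizontal axis and of 25HC then PAM3 against 25HC on the vertical axis, both as differences of mean log2(bp + 500). The 1159 alike genes in blue lie along the dotted line of equal change, while Cxcl2, Tlr4 and Ciita, circled and not called, lie off it; for genes at 0 in a group, such as Nhs and Saa2, the added 500 bp sets the position.

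More members rose in the antimicrobial list than in any other of the 34 gene lists. Of 21 measured antimicrobial and acute-phase genes, 8 rose (Lcn2, Saa2, Saa1, Camp, Saa3, Acod1, Cybb and Slc11a1) and 1 fell (Pglyrp1). That is 38.1% and 4.76%, against 4.87% and 4.77% over all genes tested, shares that apply to every list below. Saa2 and Camp passed the filter on low values through the libraries with PAM3 alone, so they had to differ. Saa1, with a mean of 264 bp without PAM3, also needed those libraries to pass. The list median was 0.63 in log2 change against −0.01 over all genes tested, and in the fit blocked on mouse 7 rose. All 9 were alike with and without 25HC.

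Lcn2 encodes lipocalin 2, which starves bacteria of iron by binding their siderophores. Its window on chromosome 2 (GRCm38, gene body 32384637 to 32387739) held 1346 and 1337 bp of peaks in the untreated libraries and 1140 and 1346 bp with 25HC, against 3670 and 4105 bp with PAM3 and 4045 and 4015 bp with 25HC then PAM3. The groups lay far apart, and the spread within each was small. The log2 change was 1.33 ± 0.07 (SE; limma adjusted p = 0.001122), with 1.30 without 25HC and 1.36 with it, and the difference of the 2 had a 95% interval of −0.29 to 0.41.

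Camp, the gene of the cathelicidin peptide that punctures bacterial membranes, had no peak in any of the 4 libraries without PAM3. It held 1518 and 1706 bp with PAM3 and 1890 and 2133 bp with 25HC then PAM3 (limma adjusted p = 0.001656). Because libraries at 0 do not vary, such a gene's adjusted p can be too small, and no fold is given for them. Such a window also passed the filter on low values through 1 state only, so its p gives no support. Acod1 makes itaconate, a metabolite that inhibits bacterial growth and succinate dehydrogenase. Its window held 2418, 2356, 1831 and 3056 bp without PAM3 (untreated A and B, then 25HC A and B) and 5329, 5579, 5522 and 5540 bp with it (PAM3 A and B, then 25HC then PAM3 A and B). The 4 libraries with PAM3 were almost equal and all above the others, with a log2 change of 1.07 ± 0.13 (SE; limma adjusted p = 0.006264).

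The serum amyloid A genes, whose products are acute-phase proteins that bind lipids and retinol, rose as a cluster on chromosome 7. Saa3, Saa4, Saa1 and Saa2 lie in 46711998 to 46754313, where the peaks of that stretch with 5 kb on either side summed to 3520, 3418, 3252 and 3369 bp without PAM3 and to 11549, 17082, 13540 and 13364 bp with it. The mean rose 4.1-fold, from 3390 ± 111 bp to 13884 ± 2314 bp (SD, n = 4 each). The groups did not overlap, but the stretch was joined from genes already called, so that gives no further support. Saa2 had no peak without PAM3 and held 2315, 4895, 2453 and 2927 bp with it. Saa4, called with a log2 change of 1.57 ± 0.07 (SE; limma adjusted p = 0.0006725), had 998 to 1154 bp without PAM3 and 3895 to 4269 bp with it. Saa1 and Saa2 are close copies of one another, and how reads that fit both were placed is not given in the sources used here.

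**Figure D2:**
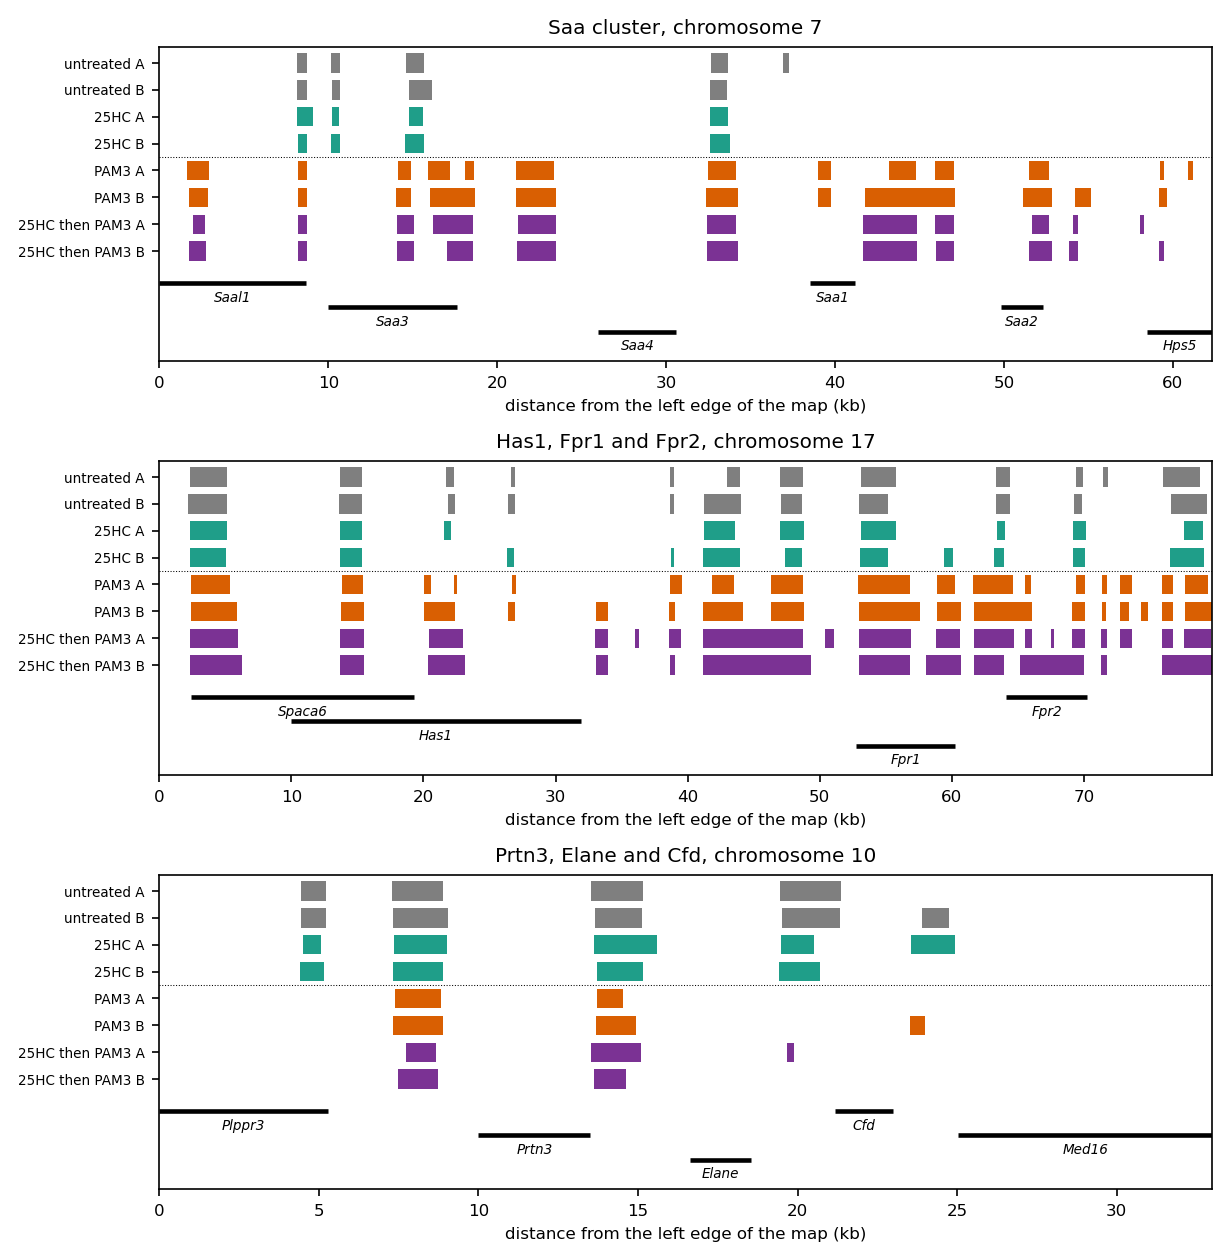
Deposited peaks (coloured blocks) of each of the 8 libraries over 3 loci, with gene bodies as black bars and the distance from the left edge of each map in kb. In the Saa cluster and around Fpr2 the 4 lower rows, with PAM3, hold blocks that the 4 upper rows lack. Upstream of Cfd the lower rows lack the block that the upper rows hold, except for a short one in 25HC then PAM3 A.

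Receptors for bacterial products and tissue danger signals changed in both directions. Of 26 measured receptors in a list for formyl peptides, complement, lipid mediators, nucleotides and adenosine, 5 rose (Fpr2, Fpr1, Adora2a, Gpr84 and Cysltr1) and 1 fell (Gpr34). That is 19.2% and 3.85%, and the list median was 0.01. Fpr1 and Fpr2 encode the receptors that guide phagocytes along formylated peptides shed by bacteria. Fpr2 held 2026, 1627, 1669 and 2309 bp without PAM3 and 6496, 8567, 7482 and 9065 bp with it, a log2 change of 1.81 ± 0.11 (SE; limma adjusted p = 0.001122). Fpr1 held 4651, 4117, 4335 and 4411 bp without and 9267, 11073, 10441 and 10349 bp with PAM3. Neither gene's groups overlapped, as the rule for alike genes requires. The changes with and without 25HC were close, at 1.83 and 1.80 for Fpr2 and 1.17 and 1.14 for Fpr1 (log2, without 25HC first). The 2 windows overlap and share peaks.

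Adora2a, the adenosine receptor that dampens inflammatory signalling, rose by 1.01 ± 0.10 in log2 (SE; limma adjusted p = 0.004106), from 1915 to 2530 bp without PAM3 to 4641 to 6029 bp with it. Among 21 Fc, Trem and paired immune receptors 3 rose and 1 fell (14.3% and 4.76%, list median 0.03). Trem1, which amplifies Toll-like receptor signals, led them. Its called length was 1569, 708, 1875 and 2008 bp without PAM3 and 3302, 4251, 5760 and 6291 bp with it, and its log2 change was 1.43 ± 0.16 (SE; limma adjusted p = 0.005273). Every library with PAM3 was above every library without, as the rule for alike genes requires.

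Scavenger and lectin receptors were split. Of 16 scavenger and efferocytosis receptors, 2 rose (Marco and Cd36) and 3 fell (Cd163, Axl and Cd5l), 12.5% and 18.8%, and the list median was −0.17. Of these 5, 3 were alike with and without 25HC, and in the fit blocked on mouse 1 rose and 3 fell. Marco, a scavenger receptor that binds bacteria and particles, had no peak in the 4 libraries without PAM3 and 2779, 2914, 2347 and 1392 bp with it (limma adjusted p = 0.002986). Its window passed the filter on low values through the libraries with PAM3 alone, so it had to differ and its p gives no support. Cd163, which takes up haemoglobin bound to haptoglobin, held 3925, 3868, 3356 and 2946 bp without PAM3 and 1995, 2052, 2067 and 2052 bp with it. The 4 libraries with PAM3 were nearly equal, and the log2 change was −0.64 ± 0.09 (SE; limma adjusted p = 0.0105). Axl, a receptor for apoptotic cells, held 8500 to 8791 bp without PAM3 and 3809 to 5420 bp with it, but its call was lost in 4 of the 8 fits that left out 1 library (without untreated B, 25HC A, 25HC B or 25HC then PAM3 B; highest adjusted p = 0.0589). Of 23 lectin receptors 4 rose and 4 fell (17.4% each), the dendritic cell markers Clec9a and Siglech among the falls. Siglece, an inhibitory receptor for sialic acids, rose by 0.84 ± 0.11 in log2 (limma adjusted p = 0.008605) and Clec4a2 by 1.28 ± 0.19 (adjusted p = 0.0113), while Clec10a, a galactose-type lectin of alternatively activated macrophages, fell by 0.88 ± 0.12 (adjusted p = 0.01046; each ± SE).

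Of 21 adhesion receptors and integrins 4 rose (19%) and none fell (list median 0.06), and in the fit blocked on mouse 2 rose and 1 fell. Adgre1, which encodes the macrophage surface protein F4/80, had the widest gain of the 4, from 3247, 4010, 4242 and 5210 bp without PAM3 to 17121, 21938, 13703 and 14755 bp with it. Its log2 change was 1.90 ± 0.19 (SE; limma adjusted p = 0.003913). It was larger without 25HC (2.32) than with it (1.48), with a 95% interval of −1.33 to −0.36 for the difference (interaction adjusted p = 0.257). Itgb8, the integrin chain that frees TGF-beta from its latent complex, held 0, 1480, 1783 and 1978 bp without PAM3 and 5695, 9216, 8889 and 12931 bp with it (limma adjusted p = 0.0163). Itgam, a chain of complement receptor 3, rose by 0.39 ± 0.08 in log2 (SE; adjusted p = 0.0279), and in the fit blocked on mouse its adjusted p was 0.0525.

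**Figure D3:**
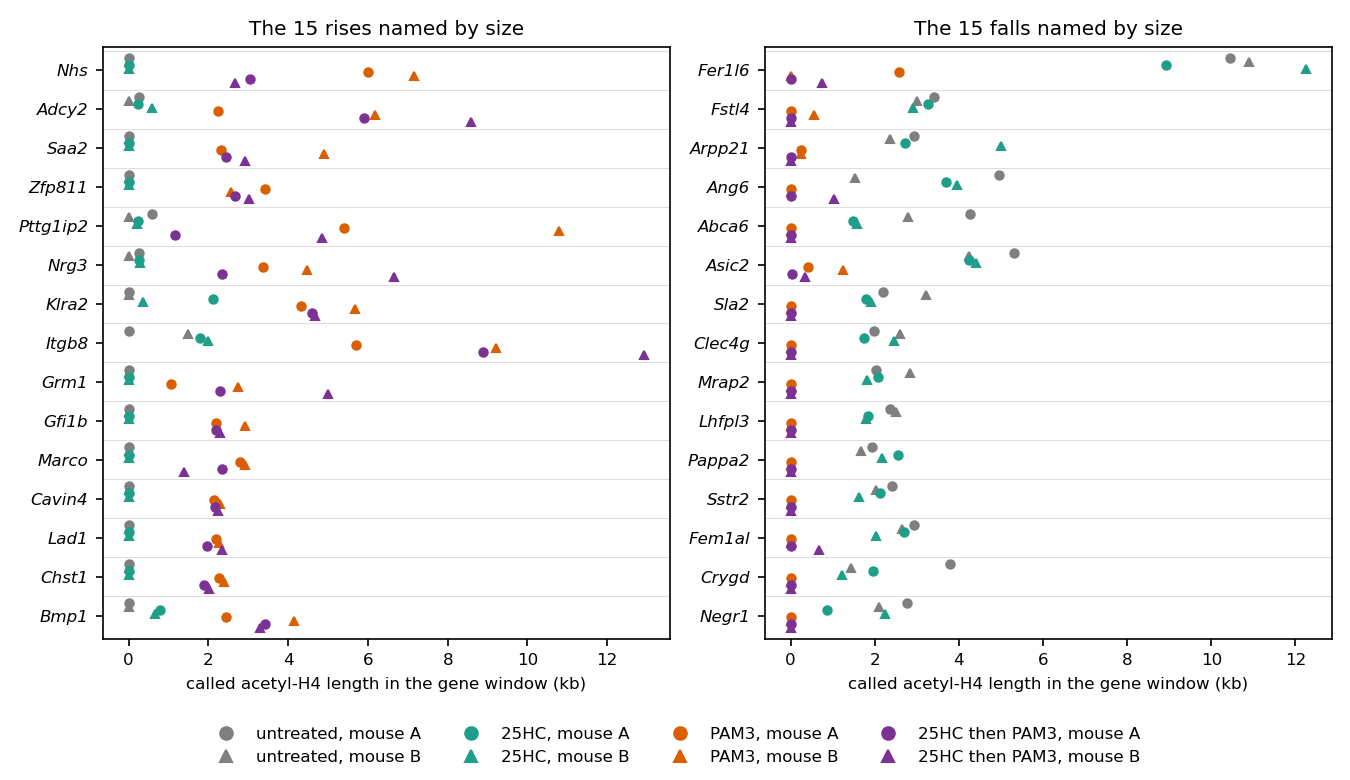
Called length in kb in each of the 8 libraries for the 15 largest alike rises and the 15 largest alike falls, 1 gene per line, with colours for the 4 groups and marker shapes for the mice. In every one of the 30 genes the orange and purple points (with PAM3) lie on 1 side of the grey and green ones, as the rule for alike genes requires.

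In the pathway that senses PAM3, Tlr2 and Tlr1 rose and Tlr5 fell among 18 Toll-like receptors and co-receptors (11.1% and 5.56%, against 4.87% and 4.77% over all genes tested), with a list median of −0.06, and in the fit blocked on mouse 2 rose and 2 fell. Tlr2, the receptor chain that binds the lipopeptide, held 2943, 2388, 2640 and 2285 bp without PAM3 and 3615, 5015, 4080 and 4034 bp with it. The groups did not overlap, as the rule for alike genes requires. The log2 change of 0.62 ± 0.10 (SE, limma adjusted p = 0.01298) was 0.64 without 25HC and 0.60 with it. The rise of Tlr1, its partner, was 0.36 ± 0.07 (SE; adjusted p = 0.0247), and that call was lost in 6 of the 8 fits that left out 1 library (all but those without untreated A or PAM3 A; highest adjusted p = 0.0804). The fall of Tlr5, the receptor for flagellin, was 0.56 on the log2 scale, with a log2 change of −0.56 ± 0.09 (SE; adjusted p = 0.0163; lost without 25HC A or 25HC B, highest adjusted p = 0.0562). Tlr4, the receptor for lipopolysaccharide, was not called. It held 6110, 6283, 6610 and 6822 bp without PAM3, 2264 and 2943 bp with PAM3 alone and 8609 and 10651 bp with 25HC then PAM3, so it went down in cells without 25HC and up in cells with it. Its interaction adjusted p was 0.0734.

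Of 31 genes of MyD88 and NF-kB signalling 4 rose and 1 fell (12.9% and 3.23%), with a median of 0.19, and in the fit blocked on mouse 4 rose and none fell. Nfkbia, which encodes the inhibitor that holds NF-kB in the cytoplasm and is itself an NF-kB target, held 2782, 2864, 2510 and 2773 bp without PAM3 and 3602, 4671, 5547 and 5370 bp with it. Its groups did not overlap, as the rule for alike genes requires. Its log2 change was 0.71 ± 0.10 (SE, limma adjusted p = 0.01024), 0.52 without 25HC and 0.90 with it. Rel, an NF-kB subunit, and Tab2, an adaptor of the kinase TAK1, also rose (log2 change 1.38 ± 0.25, adjusted p = 0.0198, and 0.80 ± 0.14, adjusted p = 0.0176). The call of Rel was lost without untreated B, 25HC A, 25HC B or PAM3 B (highest adjusted p = 0.0625) and that of Tab2 without 25HC A or 25HC then PAM3 A (highest adjusted p = 0.0524). None of 20 AP-1, ATF and MAF factors, 11 chemokine receptors or 13 inflammasome genes was called by limma. At an unadjusted p under 0.05 the counts were 5, 1 and 3. A limma model with 4 separate groups called 0, 0 and 3 of them, and the fit blocked on mouse called 1 AP-1 gene and none of the others.

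Among cytokines 4 of 25 rose (16%) and none fell (median 0.25), and among chemokines 2 of 19 rose (10.5%) and none fell (median 0.23). With the mouse as a block these counts were 3 and 1. Tnf, the gene of tumour necrosis factor, lies on chromosome 17 (35199367 to 35202007) and held 2756, 2665, 2766 and 2761 bp without PAM3 and 3686, 4099, 3971 and 3934 bp with it. That is a modest but tight rise, of 0.46 ± 0.07 in log2 (SE; limma adjusted p = 0.01046), and it was 0.50 without 25HC and 0.42 with it. Il12a, which encodes the p35 chain of interleukin-12, held 380, 356, 0 and 0 bp without PAM3 and 1156, 3138, 3129 and 3184 bp with it (adjusted p = 0.0113). Its mean without PAM3 was 184 bp, so it passed the filter on low values only through the libraries with PAM3, and its p gives no support. Ccl7, a monocyte attractant, held 1756 to 2961 bp without PAM3 and 3834 to 6274 bp with it, a log2 change of 0.95 ± 0.11 (SE; adjusted p = 0.005715).

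Il6 and Cxcl2 did not change alike. Il6 held 1376, 1130, 1369 and 1324 bp without PAM3, 1283 and 2696 bp with PAM3 alone and 4166 and 4902 bp with 25HC then PAM3. Its rise in the limma fit (log2 change 0.96 ± 0.23, SE; adjusted p = 0.0469) was lost in the fit blocked on mouse (adjusted p = 0.0769) and in 7 of the 8 fits that left out 1 library, all but that without PAM3 A (highest adjusted p = 0.122). Cxcl2, a neutrophil attractant, was not called (adjusted p = 0.0668). It held 1826 and 2456 bp untreated and 2744 and 2972 bp with PAM3, against 1076 and 1353 bp with 25HC and 6074 and 6446 bp with 25HC then PAM3 (interaction adjusted p = 0.125). Il1b and Nos2, classical products of activated macrophages, were not called either (adjusted p = 0.61 and 0.796), and the groups of both overlapped. Ch25h, the enzyme that makes 25HC, held 0, 1861, 2271 and 1826 bp without PAM3 and 1960, 2266, 1881 and 0 bp with it, so that 1 library on each side was at 0.

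In metabolism and stress defence, Sod2, Hif1a and Acsl5 rose and Gpx1, Slc40a1 and Dgat2 fell. Sod2, the superoxide dismutase of mitochondria, held 1904, 1946, 1714 and 1769 bp without PAM3 and 3374, 4070, 5019 and 6204 bp with it. Its log2 change was 1.13 ± 0.13 (SE; limma adjusted p = 0.006111), larger with 25HC (1.42) than without (0.84), with a 95% interval of 0.21 to 0.94 for the difference (interaction adjusted p = 0.3). Gpx1, the glutathione peroxidase that removes hydrogen peroxide, went the other way. It held 3776, 3728, 3772 and 3813 bp without PAM3 and 1911, 2428, 1944 and 1915 bp with it, a log2 change of −0.74 ± 0.08 (SE; adjusted p = 0.004106). In the list of 18 antioxidant and NRF2 genes 2 rose and 1 fell (11.1% and 5.56%), with a median of 0.10.

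Hif1a, the oxygen-regulated transcription factor that drives glycolytic genes, held 2762 to 3497 bp without PAM3 and 6089 to 7365 bp with it, a log2 change of 0.94 ± 0.09 (SE; limma adjusted p = 0.003803). It was the 1 called gene of 24 in glycolysis and the hypoxia response, 4.17% against 4.87% over all genes tested, with a list median of 0.17. Acsl5, which activates long-chain fatty acids, rose by 1.63 ± 0.17 in log2 (SE; adjusted p = 0.004106), from 2547 to 4016 bp without PAM3 to 8381 to 12371 bp with it. Dgat2, which makes triglycerides, fell from 2353 to 3517 bp to 1266 to 1695 bp, with a log2 change of −0.84 ± 0.12 (SE; adjusted p = 0.0103). Both were among 21 genes of fatty acid uptake and storage, of which 2 rose and 3 fell (9.52% and 14.3%, median −0.05).

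Iron handling joined 2 rises, Lcn2 and Slc11a1, with the fall of Slc40a1, among 15 genes (13.3% and 6.67%) with a median of 0.10. Slc40a1 encodes ferroportin, the exporter that releases iron from macrophages. It held 5376, 3053, 4653 and 3697 bp without PAM3 and 1027, 1258, 1488 and 1244 bp with it, and the groups lay wide apart. The log2 change was −1.39 ± 0.17 (SE; limma adjusted p = 0.006991), −1.43 without 25HC and −1.35 with it. The rise of Slc11a1, the metal pump of phagosomes, was 0.41 ± 0.09 (SE; adjusted p = 0.0355), and in the fit blocked on mouse its adjusted p was 0.0619, which leaves 1 rise in that list.

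In arginine, itaconate and tryptophan metabolism Acod1 rose and 3 of the 13 genes fell, Kmo, Kynu and Odc1 (7.69% and 23.1%). In the limma fit blocked on mouse 2 fell, since Odc1 then had an adjusted p of 0.0728. Kmo, the kynurenine hydroxylase of tryptophan breakdown, held 10100, 10968, 6634 and 8269 bp without PAM3 and 5864, 5893, 2273 and 2688 bp with it (log2 change −1.09 ± 0.16, SE; limma adjusted p = 0.0114). Its levels were lower in all 4 libraries with 25HC than in their counterparts without, while the fall with PAM3 was present in both settings, at −0.74 without 25HC and −1.44 with it. Of 15 genes of eicosanoid synthesis 4 rose and 1 fell (26.7% and 6.67%, median −0.09), but in the fit blocked on mouse 1 rose. That 1 was Ptgs2 or cyclooxygenase 2, which starts prostaglandin synthesis and held 0, 1016, 0 and 0 bp without PAM3 and 1044, 2392, 2576 and 3689 bp with it (adjusted p = 0.0398; 0.046 with the block; lost in 6 of the 8 fits that left out 1 library, all but those without untreated B or PAM3 A, highest adjusted p = 0.107). The mean of Ptgs2 without PAM3 was 254 bp, so it passed the filter on low values only through the libraries with PAM3, and its p gives no support. Ltc4s, the leukotriene C4 synthase, fell from 4654 to 5091 bp without PAM3 to 1333 to 2577 bp with it, a log2 change of −1.10 ± 0.13 (SE; adjusted p = 0.006553).

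The lipid genes that 25HC acts on through SREBP and LXR differed in their counts. None of 23 genes of cholesterol synthesis was called by limma (3 at an unadjusted p under 0.05, none in the model with 4 separate groups or in the fit blocked on mouse), and of 21 LXR targets and cholesterol export genes 3 rose and 2 fell (14.3% and 9.52%, against 4.87% and 4.77% over all genes tested; median 0.05). The difference between the 2 lists was not tested. Abca6, 1 of the 2 falls, had no peak in the 4 libraries with PAM3 and passed the filter through the others alone, so it had to differ. Smpdl3a, a secreted phosphodiesterase, held 1587, 1667, 1598 and 1599 bp without PAM3 and 2279, 2378, 2973 and 2952 bp with it (log2 change 0.58 ± 0.09, SE; adjusted p = 0.0112). Abca1, the cholesterol exporter, was not called (log2 change 0.23 ± 0.13, SE; adjusted p = 0.335).

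**Figure D4:**
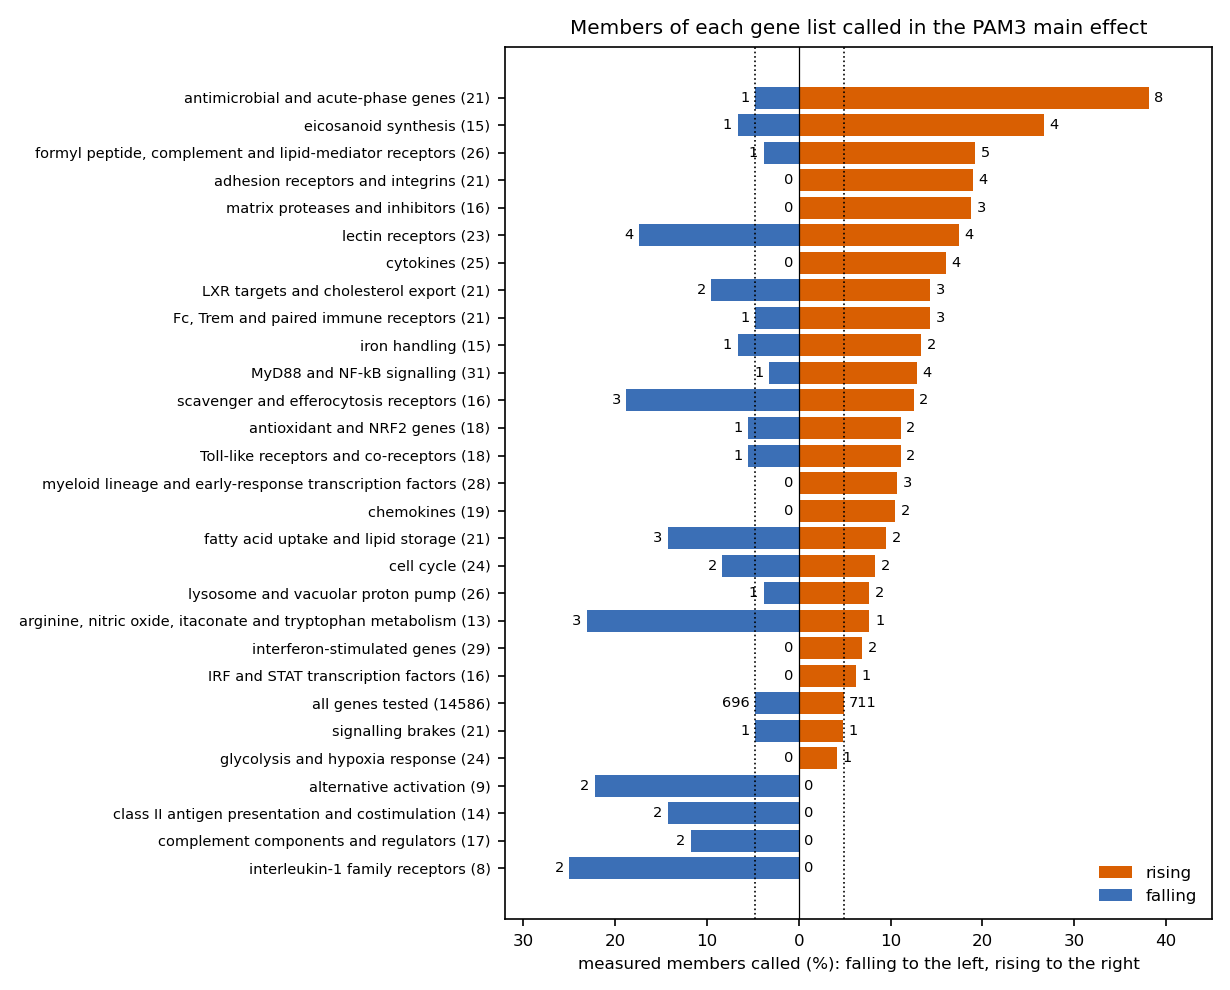
Share of the measured members of each gene list that rose (right, orange) or fell (left, blue), with the counts at the bar ends, the number of measured members in brackets and the shares over all genes tested as dotted lines. The antimicrobial list, with 8 of 21 members rising, has the longest bar to the right; lists with no called member are not drawn.

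Of the genes for presenting antigen and for complement, the called members fell. Among 14 class II and costimulation genes 2 fell (14.3%, against 4.77% over all genes tested) and none rose. The list median was −0.25, and 1 fell in the fit blocked on mouse. H2-DMb2, a chain of the chaperone that loads peptides on class II, held 3319, 2956, 2861 and 2800 bp without PAM3 and 1489, 1441, 1524 and 2088 bp with it (log2 change −0.70 ± 0.11, SE; limma adjusted p = 0.0133). Ciita, the master regulator of class II genes, was not called (adjusted p = 0.118). It held 11048 and 9411 bp untreated and 2433 and 2097 bp with PAM3, but 5548 and 9493 bp with 25HC and 5260 and 7053 bp with 25HC then PAM3, so the last 2 groups overlapped. Among 17 complement genes 2 fell (11.8%, and 1 in the fit blocked on mouse). Cfd, the factor D protease of the alternative pathway, held 1913, 2708, 2436 and 1275 bp without PAM3 and 0, 477, 213 and 0 bp with it (adjusted p = 0.0105). Of 8 receptors of the interleukin-1 family 2 fell (25%, and 1 in the fit blocked on mouse) and none rose. The falls were led by Il1rl1, the receptor for interleukin-33, from 7950 to 9018 bp without PAM3 to 1852 to 5759 bp with it. Its log2 change was −1.22 ± 0.21 (SE; adjusted p = 0.0169; 0.0503 without 25HC then PAM3 A).

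Cell cycle genes had 2 rises and 2 falls among 24 (8.33% each, median 0.05), and in the fit blocked on mouse the 2 falls alone were called. Cdk1, the kinase that starts mitosis, held 6302, 5131, 5474 and 5386 bp without PAM3 and 3128, 3434, 2865 and 4078 bp with it, a log2 change of −0.64 ± 0.11 (SE; limma adjusted p = 0.0158). Plk1, another mitotic kinase, held 1978 to 2401 bp without and 798 to 1344 bp with PAM3 (log2 change −0.76 ± 0.10, SE; adjusted p = 0.007811). None of 17 housekeeping genes was called by limma (2 at an unadjusted p under 0.05, none in the model with 4 separate groups or in the fit blocked on mouse). Gapdh held 3038 to 3391 bp without PAM3 and 2725 to 3196 bp with it, and Actb 4085 to 5837 and 3967 to 4364 bp.

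Of 16 matrix proteases and inhibitors 3 rose (18.8%) and none fell (median 0.18, and 2 rose in the fit blocked on mouse). Bmp1, the protease that trims procollagen, held 0, 0, 774 and 670 bp without PAM3 and 2447, 4139, 3427 and 3303 bp with it (limma adjusted p = 0.006743). Its mean without PAM3 was 361 bp, so it passed the filter on low values only through the libraries with PAM3, and its p gives no support. Its 2 libraries with 25HC alone held short peaks that the untreated ones lacked. Of 26 genes of the lysosome and its proton pump 2 rose and 1 fell (7.69% and 3.85%, near the shares over all genes tested; median 0.01; the fall was lost in the fit blocked on mouse). Plekhm1, which tethers lysosomes to other vesicles, held 7832 to 13177 bp without PAM3 and 14032 to 19509 bp with it, a log2 change of 0.73 ± 0.11 (SE; adjusted p = 0.0125). Of 28 myeloid lineage and early-response factors 3 rose (10.7%) and none fell (median 0.00476, and 2 rose in the fit blocked on mouse). Klf6, a zinc-finger factor induced early after stimulation, held 5861 to 7591 bp without PAM3 and 8251 to 11628 bp with it, a log2 change of 0.52 ± 0.09 (SE; adjusted p = 0.0192; 0.0534 without untreated B). Of 9 genes of alternative activation 2 fell (22.2%), Clec10a and the interleukin-4 receptor chain Il4ra, and none rose (median −0.25, and 1 fell in the fit blocked on mouse).

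Some windows held peaks in one state alone. Peaks were present in all 4 libraries with PAM3 and absent from the other 4 in 27 windows (0.185% of those tested), and the reverse held in 35 windows (0.24%). Such windows passed the filter on low values through 1 state only, so they had to differ. The first group held Nhs, an actin regulator of the lens and brain, at 6011, 7162, 3045 and 2678 bp with PAM3. It also held Gfi1b, a repressor of erythroid and megakaryocyte genes (2180, 2912, 2194 and 2300 bp), Zfp811, a zinc-finger gene (3425, 2565, 2663 and 3025 bp), and Chst1, a sulfotransferase of keratan sulfate (2254, 2385, 1897 and 2009 bp). The levels were of like size with and without 25HC in the last 3, while those of Nhs were lower with 25HC.

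The second group held receptors, an adaptor and a transporter. Sla2, an adaptor that limits receptor signalling in lymphocytes, held 2193, 3209, 1795 and 1905 bp without PAM3, and Clec4g, a lectin of liver and lymph node sinuses, held 1993, 2599, 1742 and 2467 bp. Sstr2, a receptor for somatostatin, held 2415, 2037, 2132 and 1616 bp, and Abca6, a lipid transporter of the ABC family, 4273, 2796, 1492 and 1578 bp. Each was at 0 in all 4 libraries with PAM3. Fer1l6, a ferlin gene, had the longest loss among the 15 falls named by size, from 10447, 10892, 8919 and 12255 bp without PAM3 to 2578, 0, 0 and 758 bp with it (limma adjusted p = 0.0195; lost without untreated B, 25HC A, 25HC B or 25HC then PAM3 A, highest adjusted p = 0.0634).

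Promoters showed where such switches lay. The RefSeq table (GRCm38.p6) gave 14796 promoter windows, from 250 bases before to 50 after a start of transcription, for 11702 of the genes tested. In 30 of them (0.203%) peaks of all 4 libraries with PAM3 covered at least 50% and the other 4 libraries covered none, and 25 (0.169%) were lost in the same way. Of the 29 genes with a gained promoter 17 rose, and of the 24 with a lost one 12 fell. Most called genes showed no such switch: a promoter peak was present in all 8 libraries for 67.5% of 590 rising genes with a promoter, 56.3% of 568 falling genes and 64.2% of all 11702.

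At Lcn2 the 4 libraries with PAM3 each had 1 peak over the start, reaching 2067, 2009, 2124 and 2057 bp upstream and 646, 1003, 956 and 939 bp downstream, and the other 4 had no peak within 4 kb. At Camp the peaks reached 1112 to 1251 bp upstream, again with PAM3 alone. Their fold ratios, as the authors gave them, were 1.07 and 1.29 with PAM3 and 1.86 and 1.56 with 25HC then PAM3. Those of the Lcn2 peaks were 1.78 to 2.11, and the medians of all peaks in these libraries 1.57 to 1.75. A switch at a promoter can therefore rest on a weakly enriched peak. Tnf differed in kind. Without PAM3 its peak began 81, 77, 68 and 51 bp inside the gene and ended at 1894 to 1930 bp, and with PAM3 the peak ended at nearly the same place, 1795 to 1873 bp, but began 1042, 1182, 1290 and 1192 bp upstream of the start. The added length at Tnf was therefore the promoter and the DNA before it. The fold ratio of that Tnf peak was 2.49 in PAM3 A but 1.10 in 25HC then PAM3 B. At Acod1 the peaks with PAM3 began 448 to 689 bp before its start and ended 2578 to 2647 bp inside the gene. Part of that stretch already held a peak in untreated B (1811 to 2039 bp inside the gene) and 25HC B (1813 to 2574 bp).

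Cdk1 was the mirror image of Tnf. Its peak ran from 491 to 547 bp before the start to 2306 to 2552 bp inside the gene in all 4 libraries without PAM3, and with PAM3 it began 1081, 709, 822 and 717 bp inside the gene. A short separate peak lay upstream, from −512 to −277 bp relative to the start in PAM3 B and from −506 to −285 bp in 25HC then PAM3 A. At Sstr2 peaks that reached 1424 to 2103 bp upstream without PAM3 were absent with it.

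**Figure D5:**
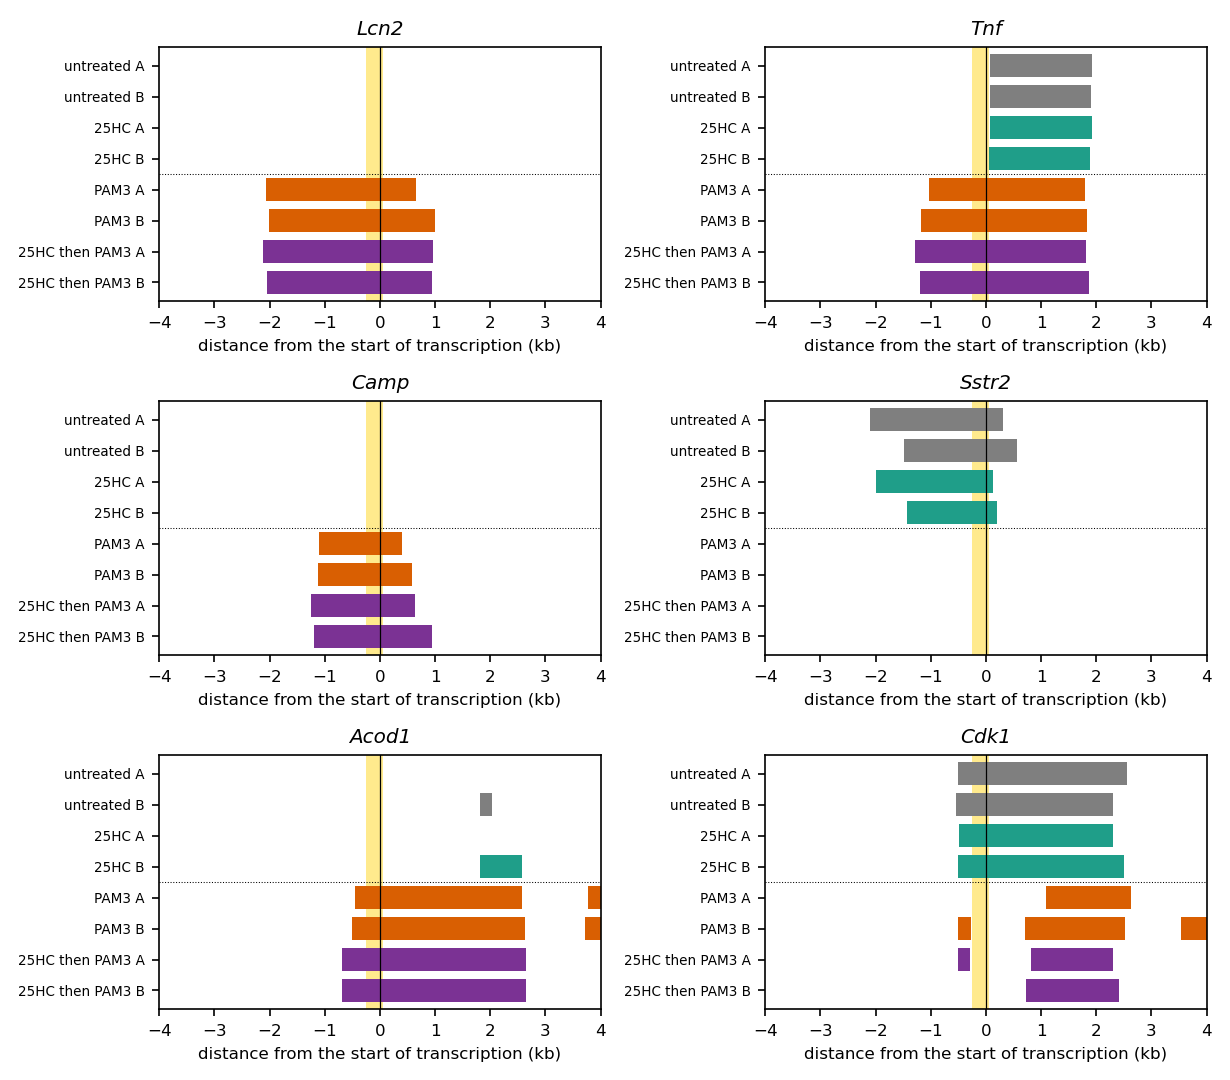
Deposited peaks of the 8 libraries within 4 kb of the start of transcription of 6 genes, in the direction of transcription, with the 300-base promoter window shaded yellow. With PAM3 (lower 4 rows) the window is covered at Lcn2, Camp, Acod1 and Tnf and bare at Sstr2 and Cdk1, and without PAM3 the reverse holds.

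The promoters of the named alike genes with the largest switched change are shown because each was covered over all its 300 bases in 4 libraries and over none in the other 4; those of Acod1 and Tnf were added after their values were seen, for their role in the response. Each line gives the 250 bases before the start of transcription, 5′ to 3′ on the gene's strand, from RefSeq on GRCm38.p6. They lie at chr17:32809932-32810181 (minus strand) for Zfp811, chr6:131247363-131247612 (minus strand) for Klra2, chr2:28621983-28622232 (minus strand) for Gfi1b, chr11:113619077-113619326 (plus strand) for Sstr2, chr9:109849457-109849706 (minus strand) for Camp, chr2:32387740-32387989 (minus strand) for Lcn2, chr14:103046762-103047011 (plus strand) for Acod1 and chr17:35202008-35202257 (minus strand) for Tnf. Capitals mark letters that match GGANNTTCC (NF-kB), TGANTCA (AP-1), TTGCNNAA (C/EBP) or GAGGAAG (PU.1) on either strand.
Zfp811: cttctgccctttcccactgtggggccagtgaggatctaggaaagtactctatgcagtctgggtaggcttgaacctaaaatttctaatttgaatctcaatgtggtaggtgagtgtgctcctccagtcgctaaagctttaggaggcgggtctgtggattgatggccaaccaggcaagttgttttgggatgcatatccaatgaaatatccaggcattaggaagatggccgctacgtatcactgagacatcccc
Klra2: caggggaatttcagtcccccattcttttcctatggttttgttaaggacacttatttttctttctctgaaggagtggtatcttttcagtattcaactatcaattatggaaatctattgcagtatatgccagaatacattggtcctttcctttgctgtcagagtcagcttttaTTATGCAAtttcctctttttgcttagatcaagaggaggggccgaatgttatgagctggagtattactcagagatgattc
Gfi1b: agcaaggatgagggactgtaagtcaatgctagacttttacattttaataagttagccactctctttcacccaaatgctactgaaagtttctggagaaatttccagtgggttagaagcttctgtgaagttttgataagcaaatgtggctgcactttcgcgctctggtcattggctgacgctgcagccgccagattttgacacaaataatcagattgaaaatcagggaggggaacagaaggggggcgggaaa
Sstr2: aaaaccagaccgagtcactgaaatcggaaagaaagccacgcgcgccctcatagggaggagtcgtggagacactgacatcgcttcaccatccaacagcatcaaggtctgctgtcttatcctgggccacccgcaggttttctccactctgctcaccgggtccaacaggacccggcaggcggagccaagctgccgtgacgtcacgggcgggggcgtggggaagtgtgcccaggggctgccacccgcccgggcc
Camp: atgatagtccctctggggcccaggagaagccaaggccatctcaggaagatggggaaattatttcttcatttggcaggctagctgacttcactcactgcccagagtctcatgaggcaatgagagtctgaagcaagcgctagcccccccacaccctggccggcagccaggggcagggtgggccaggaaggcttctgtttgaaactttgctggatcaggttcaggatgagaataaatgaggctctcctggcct
Lcn2: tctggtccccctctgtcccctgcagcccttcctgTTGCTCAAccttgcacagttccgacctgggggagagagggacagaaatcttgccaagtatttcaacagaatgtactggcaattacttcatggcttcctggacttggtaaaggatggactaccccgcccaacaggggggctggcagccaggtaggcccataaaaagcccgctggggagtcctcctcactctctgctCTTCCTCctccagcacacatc
Acod1: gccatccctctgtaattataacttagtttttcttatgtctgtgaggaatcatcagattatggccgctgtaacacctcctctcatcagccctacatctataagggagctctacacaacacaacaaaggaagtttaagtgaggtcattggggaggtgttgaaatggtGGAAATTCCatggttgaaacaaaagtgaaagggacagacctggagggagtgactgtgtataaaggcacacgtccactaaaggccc
Tnf: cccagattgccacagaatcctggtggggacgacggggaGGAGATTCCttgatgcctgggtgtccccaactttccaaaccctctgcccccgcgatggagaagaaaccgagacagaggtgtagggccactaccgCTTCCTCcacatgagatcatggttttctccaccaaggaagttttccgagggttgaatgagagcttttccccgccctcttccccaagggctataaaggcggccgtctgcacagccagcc

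The NF-kB letters were found at Acod1, 85 bases before the start, and at Tnf, 212 bases before it. Lcn2 held the C/EBP letters 216 bases before its start and the PU.1 letters 21 bases before it, Klra2 the C/EBP letters at 79 bases and Tnf the PU.1 letters at 118 bases. No match was found in the shown windows of Zfp811, Gfi1b, Sstr2 and Camp, which says only that these letters are not there. Over the 250 bases before all 32851 starts of the table, the NF-kB letters were present in 3.59%, the AP-1 letters in 6.75%, the C/EBP letters in 9.56% and the PU.1 letters in 10.6%. Among the 30 gained promoters the numbers were 2, 2, 6 and 5. A match is a description of the letters and not evidence of binding.

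The change lay mostly away from the starts. For 506 alike rises with a promoter in the table, 4.55% of the gained length lay within 1 kb of a start, 82.1% in the rest of the gene body and 13.4% in the flanks, while their called length without PAM3 was divided into 26.6%, 62.2% and 11.2%. The summed length within 1 kb of starts was 1.15 times as long with PAM3 as without, against 2.13 times in the rest of the body and 2.03 times in the flanks. For 455 alike falls 8.16% of the lost length lay within 1 kb of a start and 73.3% in the rest of the body, which had held 19.5% and 64.2% of the called length without PAM3, and the body and the flanks shortened to 0.514 and 0.518 times. Over all 11702 tested genes with a promoter, the called length without PAM3 was divided into 31.6%, 50.3% and 18.1%. The zone within 1 kb of a start is fixed in length, which limits what it can gain. The alike genes were chosen for a change of the whole window, so the shares describe where it lay and test nothing.

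Some called genes lay side by side, though most loci held 1 gene. Overlapping windows can share peaks, so neighbouring calls can be the same peaks counted again. The spacing of all genes tested was not compared. Joining called genes of 1 direction whose windows were within 50 kb gave 610 rising loci, of which 528 held 1 gene and 11 at least 3, and 585 falling loci, of which 498 held 1 gene and 16 at least 3. Besides the Saa cluster, the rising loci held the anti-apoptotic Bcl2a1 genes on chromosome 9 (88719648 to 88962416). The peaks there summed to 7530 ± 1410 bp without PAM3 and 24636 ± 3875 bp with it (SD, n = 4 each), and Bcl2a1a and Bcl2a1d are near-identical copies between which reads may be split. On chromosome 17 (17826085 to 17893952) Spaca6, Has1, Fpr1 and Fpr2 rose together, with 13561 ± 530 bp without PAM3 and 28062 ± 4718 bp with it, and 2 of the 4 were alike. Has1 was not, at a log2 change of 0.63 without 25HC and 1.36 with it. Has1, a hyaluronan synthase, was the less secure call there, with an adjusted p of 0.0398 in limma and 0.0619 in the fit blocked on mouse. Ms4a6c, Ms4a6b, Ms4a4d and Ms4a6d, membrane proteins of myeloid cells on chromosome 19, went from 19541 ± 2492 bp to 37219 ± 4848 bp. At the Ugt1a cluster on chromosome 1, 5 of 10 tested genes were called, but these are alternative first exons of 1 locus and share its last exons.

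The falling locus with the most called genes lay on chromosome 10 (79860475 to 79955018), where 6 of 8 tested genes fell, Plppr3, Prtn3, Elane, Cfd, Med16 and Arid3a, 5 of them alike with and without 25HC. Prtn3 and Elane encode proteases of neutrophil granules. The locus held 22846, 20914, 17367 and 18581 bp without PAM3 and 11225, 14759, 11302 and 9982 bp with it, without overlap. As it was joined from genes already called, that gap gives no further support. Elane fell by 1.11 on the log2 scale, with a log2 change of −1.11 ± 0.17 (SE; limma adjusted p = 0.0135), while Prtn3 was not called in the fit blocked on mouse (adjusted p = 0.0563). The neutrophil markers as a list did not move one way: Camp rose, Elane and Prtn3 fell, and their summed length was 10862 to 12511 bp without PAM3 and 8555 to 10838 bp with it; their part in these results was not tested. On chromosome 11 (114764970 to 114901946) Kif19a, Btbd17, Gprc5c and the inhibitory receptor gene Cd300a fell together (3 of the 4 alike), from 21766 ± 1961 bp to 10944 ± 1519 bp (SD, n = 4 each). Rpl10a, Tead3 and Tulp1 on chromosome 17 went from 4809 ± 389 bp to 2295 ± 51.7 bp. Several calls given without their leave-out values were lost when 1 library was left out: Klra2 and Gpr84 in 5 of the 8 fits, Cd5l, Ms4a6c, Itgam and Kynu in 6, Slc11a1, Il4ra and Has1 in 7, Odc1 and Prtn3 in 8, and Cd300a without untreated A or PAM3 B. Il4ra was also not called in the fit blocked on mouse (adjusted p = 0.0551).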

How the data were processed

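Acetyl-H4 ChIP-seq libraries of macrophages from 2 mice were used as deposited peak lists. Per the submitters' processing notes, the tools were GSNAP and MACS2 2.1.0 and the build GRCm38 (mm10). The control libraries, read filters and cut-offs were not given in the sources used here. Beside start and end, the deposited lists give the authors' score, fold ratio, −log10 p and −log10 q of each peak. Read depth is unknown, since no counts of reads come with the peaks. Called length, the bp of peaks per gene body (RefSeq, GRCm38.p6) with 5 kb flanks, was computed for 21883 protein-coding genes. The 14586 with a mean of at least 500 bp were fitted in limma 3.58.1 (R 4.3.3; trend and robust settings) as log2(bp + 500) with 25HC and PAM3 as terms, each library's median subtracted, and the Benjamini-Hochberg threshold was 0.05. Log2 changes understate those of genes with little called length. Windows of 69.9% of tested genes overlap another, so neighbours can share peaks. Libraries with the same letter share a mouse, per the labels; deviations from group means correlated by −0.0171 to 0.0304 between groups, and a fit with the mouse as a block was an alternative. With 2 mice, p-values measure the spread between these libraries. The scripts were tested on simulated data. The comparison, the gene lists and the rule for named genes were chosen with earlier results of these data known. The rule took the 15 largest alike changes per direction (skipping predicted genes and chemosensory receptors, and 1 per set of overlapping windows), up to 4 members of each of 34 lists by smallest p, and 18 fixed genes; Saa4, Has1, Prtn3 and Elane were named after their values were seen, as members of the loci drawn. List medians include genes at 0 in 1 state. Alternatives changed the model, scaling, added bp, filter, flanks, peak set and weights, or left out 1 library.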

Additional observations from a re-analysis of the deposited data

Results flagged for a closer look

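For the 68 called genes above that come from the rule for named genes or are Saa4, Has1, Prtn3 or Elane, and for covered length, the 4 libraries with PAM3 and the 4 without were checked for a library that stands apart from the other 3 (a gap to the nearest above Dixon's 95% limit for 4 values, which chance passes in about 1 of 20 groups). Of 138 groups 13 held one, 9 high and 4 low. They came from 6 of the 8 libraries, at most 3 from any one. With PAM3, PAM3 B was high at Gfi1b (2912 bp) and Gpx1 (2428 bp), 25HC then PAM3 B was high at Adora2a (6029 bp) and H2-DMb2 (2088 bp), and PAM3 A was low at Il12a (1156 bp) and Has1 (2933 bp). Without PAM3, untreated A was high at Clec10a (4414 bp) and Ltc4s (5091 bp), untreated B was high at Ptgs2 (1016 bp) and Smpdl3a (1667 bp) and low at Tnf (2665 bp), and 25HC A was high at Klra2 (2110 bp) and low at Lcn2 (1140 bp). The calls of Klra2, Has1 and Ptgs2 were lost in 5, 7 and 6 of the 8 fits that left out 1 library, and those of the other 10 genes in none.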

How the results depend on the processing

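The 1407 calls and 1159 alike genes stayed within 1.5 times under the 4-group model, the mouse block, no median subtraction, quantile scaling, other added bp, filters and flanks, peaks by midpoint and no trend or robust settings. Other choices of peaks moved them further, and the cause was not tested. Equal numbers of peaks gave 935 calls, equal covered length 144 calls and 142 alike, peaks weighted by fold 535 and 460, and −log10 q of at least 5 gave 0 and 0. Leaving out 1 library gave 645 to 1183 calls, 613 to 1082 alike genes and 0 to 192 interaction calls. The interaction called 3 genes with 100 bp added, 5 with 1 kb flanks and 32 without trend and robust settings. With the mouse as a replicate block 1038 genes were called, 941 alike and none in the interaction; 61 of those 68 called genes kept their call. Of those 68, 46 were called in all 8 fits without 1 library. The covered length difference of 0.954 Mb (0.875 as the exact permutation p within pairs of the same mouse and 25HC, in place of 0.8286) was −4.87 Mb with −log10 q of at least 5 and −1.33 to 3.93 Mb without 1 library, below 0 without 25HC A (−0.608), PAM3 B (−1.33) or 25HC then PAM3 B (−0.408). With −log10 q of at least 5 the log2 change turned to 0.54 for Tlr5, −0.032 for Rel, −0.18 for Tnf, −1.14 for Trem1, 0.48 for H2-DMb2, 0.13 for Il4ra, 0.76 for Plk1, −0.75 for Ch25h and 0.031 for Gapdh, with adjusted p from 0.5504 upwards. Ch25h, not called, also turned without untreated A (−0.67), PAM3 A (−0.23), PAM3 B (−0.21) or 25HC then PAM3 A (−0.18), and Nos2, not called, with equal covered length (−0.028) or without 25HC then PAM3 B (−0.064, against up to 0.448 without untreated B). Read depth is unknown, so a window without peaks does not show that acetylation is absent.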
